A study of Xenopus tropicalis with 18 samples.

Results

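Foxi2 is a maternal forkhead transcription factor of the frog embryo whose mRNA is stored in the egg and enriched in the animal cells that become ectoderm. The libraries described here come from Xenopus tropicalis embryos in which translation of foxi2 mRNA was blocked by a morpholino antisense oligonucleotide (MO), and the question they address is which developmental gains and losses of mRNA between late blastula and early gastrula take place without Foxi2. The members are 5 of the 18 libraries of the series, taken by their labels: 2 libraries of Foxi2 morphants at Nieuwkoop-Faber stage 10.5 (early gastrula) and 3 of Foxi2 morphants at stage 9 (late blastula). All embryos were whole, wild-type and fertilized in vitro, and the Foxi2 MO was put into the animal hemisphere of the zygote. The matching controls, 2 libraries at stage 10.5 and 3 at stage 9, are labelled as controls. Their treatment label names a morpholino as well, while the study describes its comparison as one with wild-type embryos, so what the controls received is not settled by the labels. A translation-blocking MO leaves the mRNA in place, so the foxi2 transcript level does not measure how far the protein was depleted, and because whole embryos were used, fewer cells of a type and less RNA per cell cannot be told apart.

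The window spans the maternal-to-zygotic transition. Before it, the embryo lives on mRNAs laid down in the oocyte. During it, those mRNAs are cleared in waves and the zygotic genome is switched on, first with short-lived early genes such as the siamois and nodal genes of the dorsal and vegetal side, and then with the regulators that divide the embryo into ectoderm, mesoderm, endoderm and the Spemann organizer. Bone morphogenetic protein (BMP) signals then pattern the ventral side, and the organizer secretes their antagonists. In ectoderm, Foxi2 is known in Xenopus as an upstream activator of foxi1, a forkhead gene of the epidermis.

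The 5 morphant libraries held between 13302543 and 16867730 estimated fragments assigned to genes, and the controls between 12740571 and 21622064. Some libraries of the same stage differed from each other more than some libraries of different stages did. In log2 CPM (read counts scaled to library size) over 13987 genes, the morphant stage 9 libraries numbered 1 and 3 correlated at 0.856, whereas morphant stage 10.5 replicate 1 and morphant stage 9 replicate 3 correlated at 0.981. Among morphant libraries these were the lowest correlation within a stage and the highest between stages. The lowest between stages was 0.812, for stage 10.5 replicate 1 with stage 9 replicate 1. The difference between the stage means held 28.3% of the variance among morphant libraries, differences within stage 9 held 55.3%, and differences within stage 10.5 held 16.4%. These shares are not scaled for the number of libraries behind each part. Controls gave 29.2%, 53.8% and 17% for the same parts. Each morphant library resembled the control library of its own stage and number, with correlations between 0.981 and 0.993 in 5 pairs. Because the stage 9 libraries differ this widely, the stage comparisons are given with the value of each library. The stage 10.5 libraries held mRNAs of all germ layers, as whole embryos should, with tfap2a, tbxt and sox17a each above 100 CPM in both. What sets the replicates of a stage apart was not tested.

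**Figure D1:**
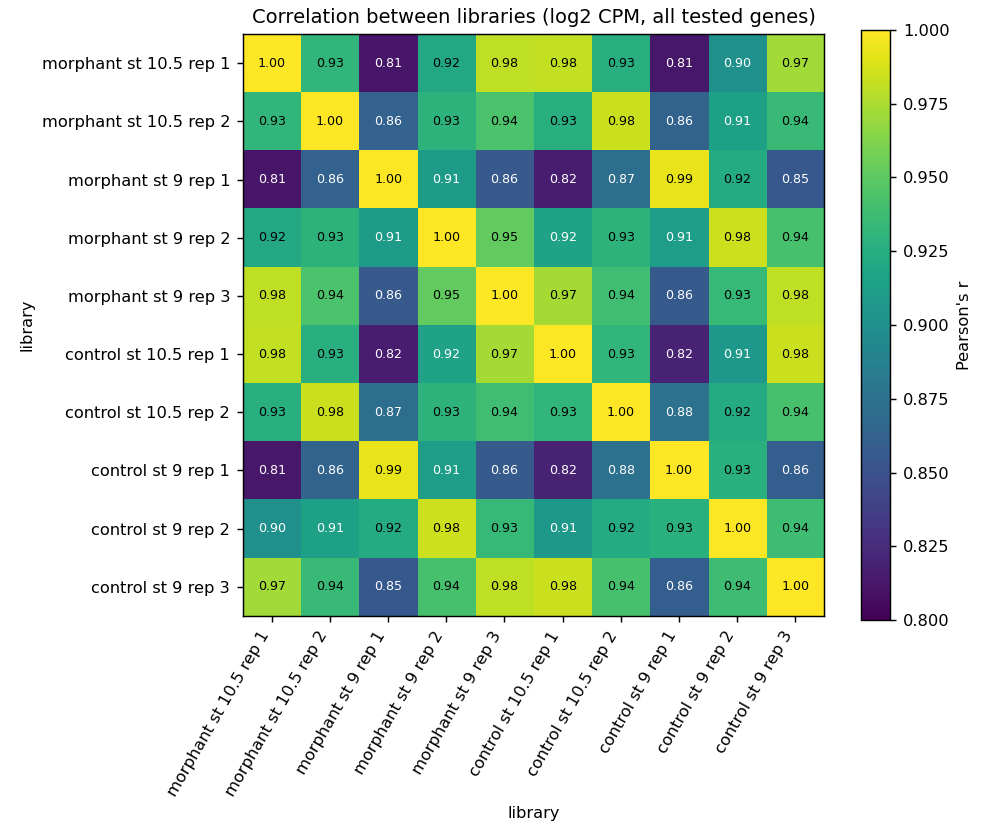
Pearson's correlation of log2 CPM between the 10 libraries of the Foxi2 series, over 13987 genes, with morphants before controls and stage 10.5 before stage 9 on both axes. Morphant stage 9 replicate 1 stands apart from the other morphant libraries at both stages, while its control counterpart matches it at 0.993.

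Against that spread, no gene passed the test for a stage difference in morphants. The test was edgeR's quasi-likelihood test with Benjamini-Hochberg adjustment, and a call needed an adjusted p under 0.05 and a 2-fold change. Of 13382 genes tested, 0 were called higher (0% of the genes tested) and 0 lower (0%), with a smallest adjusted p of 0.647. At an unadjusted p under 0.05, 718 genes differed (5.37%), of which 267 were higher at stage 10.5 and 451 lower (3.37%). DESeq2 called 1 gene higher (0.00501% of the genes it tested) and 3 lower (0.0150%). The higher one was LOC101734900 and the lower ones were LOC101730495, LOC100485551 and rnf227. The rnf227 gene had a DESeq2 log2 fold change of -1.19 ± 0.23 (SE) and an adjusted p of 0.00313. For LOC100485551 the DESeq2 value was -1.50 ± 0.32. For LOC101730495, which the low-count filter of the main test had removed, it was -20.75 ± 4.33, a size not taken as a fold change. For LOC101734900 the DESeq2 value was 8.84 ± 1.69 in morphants, against -21.69 ± 4.21 in controls. Neither value is taken as a fold change, since the low-count filter had removed this gene from the main test in controls. DESeq2 called 0 genes for a stage change that differed between morphants and controls. All 4 called genes were chosen after their values were seen. Without regard to the test, 1103 genes (8.24%) had a fitted level at least 2-fold higher at stage 10.5 and 1054 (7.88%) at least 2-fold lower. Both stage 10.5 libraries lay above all 3 stage 9 libraries for 1880 genes (14.0%) and below them for 1936 (14.5%). The median log2 fold change over all genes was 0.02.

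The targeted gene is given first, though its mRNA level is no check of the knockdown. For the protein, the study reports substantial depletion in Foxi2 morphants by western blot. The foxi2 gene (chr7:24018956-24022142 in the RefSeq annotation of the UCB_Xtro_10.0 assembly) had 285 and 401 CPM in stage 10.5 morphants, against 387, 371 and 358 CPM in stage 9 morphants. Its log2 fold change was -0.11 ± 0.18 (SE, edgeR adjusted p = 0.849), and leaving out stage 10.5 replicate 1 turned it to 0.12. The stages overlapped, and all 5 libraries lay between 285 and 401 CPM. In controls it had 116 and 271 CPM at stage 10.5, against 358, 324 and 210 CPM at stage 9, with a log2 fold change of -0.62 ± 0.43. In each of the 5 pairs of the same stage and number the morphant had more foxi2 mRNA than the control. The stage change in morphants minus that in controls was 0.50 ± 0.51 on the log2 scale (adjusted p = 1). That difference was fitted without pairing morphants with controls, so its SE includes spread that libraries of one number share. The same holds for each later difference given without a replicate block. The sox3 gene encodes the other maternal factor of the study, an ectodermal SoxB1 protein. It had 779 and 1164 CPM in stage 10.5 morphants, against 822, 922 and 839 CPM in stage 9 morphants. One gastrula library lay above and the other below all 3 blastula libraries, so the sign of its log2 fold change of 0.18 ± 0.20 turned to -0.14 without stage 10.5 replicate 2.

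Genes of the non-neural ectoderm were the first group examined. The study places Foxi2 targets in neural as well as non-neural ectoderm. It defined direct targets by a change of at least 2-fold in its morphant RNA-seq, together with binding near the gene. The libraries described here belong to that RNA-seq. Lower levels of such targets in morphants than in controls are therefore no independent evidence of a loss. Of 31 listed genes, 29 were tested and 0 passed. The genes hgf and ovol1 did not pass the filter on low counts. At least 2-fold higher levels at stage 10.5 were fitted for 15 of the 29, and at least 2-fold lower levels for 0. The median log2 fold change was 1.31, against 0.02 over all genes. Between the stages 5 of the 29 did not overlap, all of them higher in the gastrula, beside 14.0% of all genes, so the share is near the background. Without stage 9 replicate 1 the median was 0.74, and without stage 9 replicate 3 it was 1.97. Among the 29 genes, stage 10.5 replicate 1 lay above stage 9 replicate 3 for 25, but stage 10.5 replicate 2 lay above it for 9.

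The transcription factor gene tfap2a, a regulator of epidermis and neural crest, had 160 and 125 CPM in stage 10.5 morphants, against 0.532, 62.5 and 105 CPM in stage 9 morphants. The groups did not overlap, but stage 9 replicate 3 came near the gastrula level, and the log2 fold change was 1.35 ± 1.54 (adjusted p = 0.782). The epidermal keratin gene krt7 had 847 and 209 CPM in stage 10.5 morphants, against 0.947, 74.6 and 488 CPM in stage 9 morphants. Here stage 10.5 replicate 2 lay below stage 9 replicate 3, and the log2 fold change of 1.5 ± 1.89 (adjusted p = 0.802) ranged from 0.16 to 3.83 as single libraries were left out. The epithelial adhesion gene epcam varied far less. It had 2150 and 1712 CPM in stage 10.5 morphants, against 1152, 1195 and 1655 CPM in stage 9 morphants, with no overlap and a log2 fold change of 0.54 ± 0.21 (adjusted p = 0.647). In the opposite direction, grhl1, a grainyhead-like factor of epidermal differentiation that is also supplied maternally, had 130 and 189 CPM in stage 10.5 morphants. It had 381, 353 and 176 CPM in stage 9 morphants, the log2 fold change being -0.92 ± 0.40.

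The foxi1 gene (chr3:32477798-32480125) was the 1 ectodermal member of the 29 with an unadjusted p under 0.05, beside 5.37% of all genes. It had 3.23 and 16.7 CPM in stage 10.5 morphants, from 45 and 219 counts, against 1.3, 1.24 and 3.09 CPM in stage 9 morphants. Stage 10.5 replicate 2 alone was well above the rest. The log2 fold change was 2.41 ± 0.85 (unadjusted p = 0.0347, edgeR adjusted p = 0.647), and without stage 10.5 replicate 2 it was 0.79. In controls foxi1 had 5.72 and 26.4 CPM at stage 10.5, against 4.96, 5.61 and 9.02 CPM at stage 9. Its level was lower in the morphant than in the control of the same number in 5 of 5 pairs. The stage change in morphants exceeded that in controls by 1.11 ± 1.19 (adjusted p = 1), a sign that turned to -0.52 without morphant stage 10.5 replicate 2.

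Other ectodermal genes that the study followed as targets overlapped between the stages. The keratin gene krt70 had 170 and 66.6 CPM in stage 10.5 morphants, against 0.177, 5.85 and 71.0 CPM in stage 9 morphants. The olfactomedin gene olfm4 had 24.1 and 10.8 CPM in stage 10.5 morphants, against 0, 2.95 and 15.1 CPM in stage 9 morphants. A count of 0 in stage 9 replicate 1 allows up to 3 counts, or 0.177 CPM, by counting error alone. In both genes stage 9 replicate 1 was at or near the floor and stage 9 replicate 3 lay between the gastrula libraries. The fitted log2 fold change was 2.21 ± 1.82 for krt70 and 1.55 ± 1.75 for olfm4. A level lowered alike at both stages leaves the stage change as it is, so a stage change does not show such a loss. The morphant lay below the control of the same stage and number in 5 of 5 pairs for krt70, olfm4 and tfap2a. It did so in 4 pairs for krt7, and in 1 pair for epcam and grhl1. How many of all genes lay lower in 5 of 5 pairs was not counted. Such pair counts, here and for other genes of the text, thus have no background beside them. Among cell cycle genes, cdc20 lay lower in 5 pairs, with log2 ratios from -0.16 to -0.02, and aurka in 0.

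Homeobox genes of the ectoderm were similar. The dlx5 gene had 40.8 and 7.94 CPM in stage 10.5 morphants, against 0.414, 8.68 and 16 CPM in stage 9 morphants. For dlx3 the values were 4.74 and 0.993 CPM in stage 10.5 morphants, against 0, 0.118 and 1.85 CPM in stage 9 morphants. Both genes had their highest value in stage 10.5 replicate 1 and overlapped otherwise, with log2 fold changes of 1.55 ± 1.37 for dlx5 and 2.14 ± 1.75 for dlx3. Without stage 10.5 replicate 1 the value for dlx3 was 0.61, and without stage 9 replicate 3 it was 5.44. The zinc finger gene gata3 had 6.25 and 1.3 CPM in stage 10.5 morphants, against 0, 0.236 and 2.33 CPM in stage 9 morphants. The tp63 gene, a regulator of basal epidermis, had 6.89 and 2.21 CPM in stage 10.5 morphants, against 0, 0.590 and 4.87 CPM in stage 9 morphants. Of these 4 genes, none was separated between the stages. The morphant lay below the control of the same stage and number in 5 of 5 pairs for dlx5 and gata3, in 4 for tp63 and in 3 for dlx3.

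By contrast klf5 and amotl1 had small fitted stage changes in morphants. The Krüppel-like factor gene klf5 had 29.1 and 34.0 CPM in stage 10.5 morphants, against 35.7, 23.0 and 19.1 CPM in stage 9 morphants, with a log2 fold change of 0.29 ± 0.33. In controls its stages did not overlap, with 71.2 and 82.0 CPM at stage 10.5, against 31.2, 29.8 and 63.9 CPM at stage 9. The difference between the stage changes was -0.60 ± 0.55 (adjusted p = 1). The angiomotin-like gene amotl1 had 6.68 and 2.67 CPM in stage 10.5 morphants, against 4.91, 0.531 and 6.86 CPM in stage 9 morphants. The receptor tyrosine kinase gene kit had 5.1 and 0.917 CPM in stage 10.5 morphants, against 0.0592, 2.13 and 5.63 CPM in stage 9 morphants. The signs of the log2 fold changes of amotl1 (0.20 ± 1.07) and kit (0.22 ± 1.55) depended on single libraries. Against the control of the same stage and number, the morphant was lower in 5 of 5 pairs for amotl1 and in 4 for klf5 and kit.

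**Figure D2:**
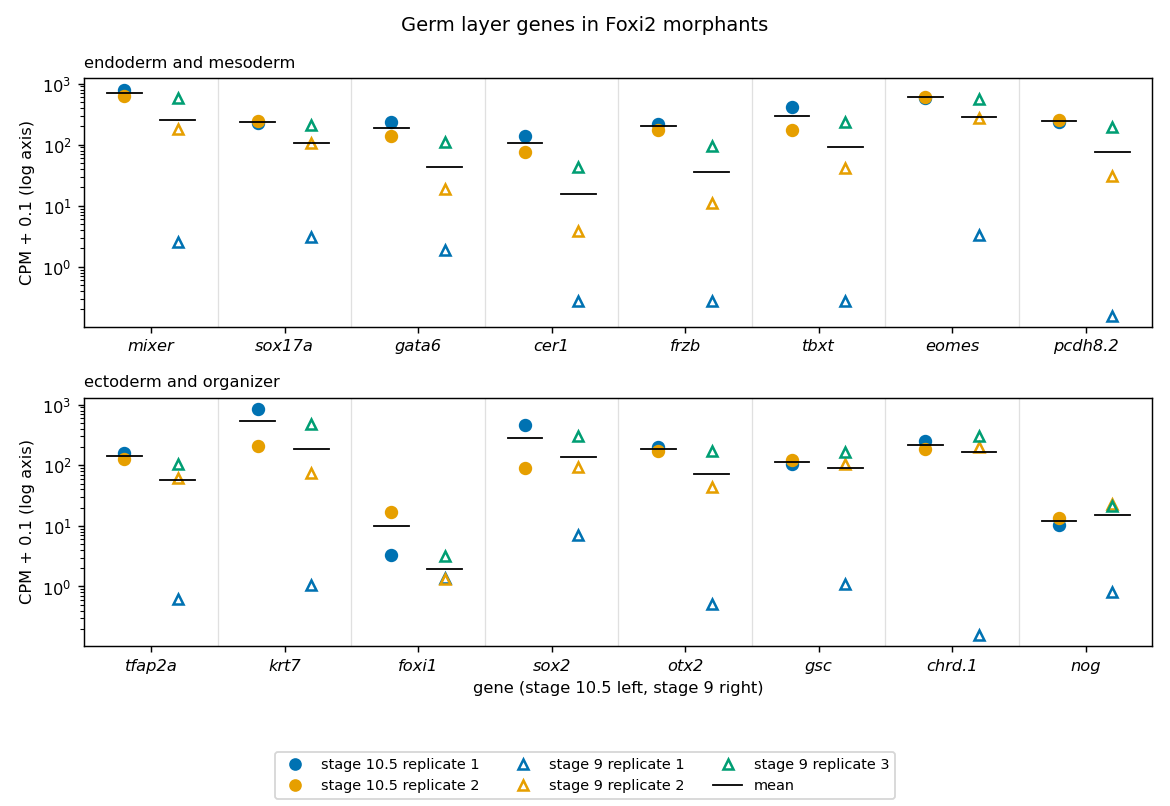
CPM plus 0.1 on a log axis for 16 germ layer genes in the 5 Foxi2 morphant libraries, with filled circles for stage 10.5, open triangles for stage 9, colours for the replicate number and bars for the stage mean. Stage 9 replicate 1 holds the lowest value of most genes, and stage 9 replicate 3 lies near the gastrula libraries.

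Neural and neural border genes were next. Of 34 listed, 31 were tested and 0 passed. At least 2-fold higher levels were fitted for 14 and at least 2-fold lower levels for 1, with a median log2 fold change of 0.80. Of the 31, 4 were separated between the stages, all higher in the gastrula, beside 14.0% of all genes, again near the background. Stage 9 replicate 1 was the lowest of all 5 libraries for 25 of the 31. The anterior gene otx2 had 198 and 169 CPM in stage 10.5 morphants, against 0.414, 43.6 and 173 CPM in stage 9 morphants. The SoxC gene sox11 is present maternally. It had 348 and 334 CPM in stage 10.5 morphants, against 159, 255 and 285 CPM in stage 9 morphants, with a log2 fold change of 0.56 ± 0.27 (adjusted p = 0.647). Its stages were separated in controls as well. The pan-neural gene sox2 had 465 and 89.6 CPM in stage 10.5 morphants, against 7.04, 94.9 and 306 CPM in stage 9 morphants. Its 2 gastrula libraries lay above and below most of the blastula ones, so that leaving out stage 10.5 replicate 1 took the log2 fold change of 1.04 ± 1.42 to -0.60.

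The forkhead gene foxd4l1.1 of the neural plate had 71.1 and 77.8 CPM in stage 10.5 morphants, against 3.02, 124 and 110 CPM in stage 9 morphants. Both gastrula libraries lay below 2 of the 3 blastula libraries and far above stage 9 replicate 1. The Notch ligand gene dlc had 58.5 and 10.2 CPM in stage 10.5 morphants, against 1.54, 1.36 and 22.0 CPM in stage 9 morphants, with a log2 fold change of 2.06 ± 1.45. That value was 0.31 without stage 10.5 replicate 1 and 4.58 without stage 9 replicate 3. The LIM-homeobox gene lhx3 was scarce. It had 20 and 13 counts in stage 10.5 morphants, against 0, 1 and 11 counts in stage 9 morphants, and it was not tested in controls. The study lists lhx3 among genes regulated by Foxi2 alone. The morphant lay below the control of the same stage and number in 1 of 5 pairs for lhx3, and in 5 for dlc. For lhx3 the log2 ratios of morphant over control were 2.06 and 1.37 at stage 10.5. At stage 9 they were 0.00, -0.05 and 1.63.

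The Notch effector gene hes5.1 (chr7:90022894-90024929) had fitted stage changes of opposite sign in morphants and controls. It had 0.79 and 0.229 CPM in stage 10.5 morphants, from 11 and 3 counts, against 0, 0.649 and 3.57 CPM in stage 9 morphants, from 0, 11 and 52 counts. In controls it had 5.97 and 1.15 CPM at stage 10.5, from 122 and 15 counts, against 0, 0.528 and 2.49 CPM at stage 9. The log2 fold change was -1.43 ± 1.86 in morphants and 1.84 ± 1.67 in controls. The difference of -3.28 ± 2.82 did not pass (edgeR adjusted p = 1), nor did it with the replicate number as a block (-3.19 ± 0.57, unadjusted p = 0.00069, adjusted p = 1). The morphant value rests on stage 9 replicate 3, since without that library the morphant log2 fold change was 0.66.

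Mesodermal genes followed. Of 35 listed, 29 were tested and 0 passed. At least 2-fold higher levels were fitted for 17 and at least 2-fold lower levels for 1, with a median log2 fold change of 1.19 (0.73 without stage 9 replicate 1 and 2.21 without stage 9 replicate 3). Of the 29, 3 were separated between the stages, all higher in the gastrula, beside 14.0% of all genes. Stage 9 replicate 3 was the highest blastula library for 28 of the 29. The pan-mesodermal T-box gene tbxt (brachyury) had 414 and 176 CPM in stage 10.5 morphants, against 0.177, 42.1 and 234 CPM in stage 9 morphants. Stage 10.5 replicate 2 lay below stage 9 replicate 3, and the log2 fold change was 1.69 ± 1.89. The related T-box gene eomes had 587 and 607 CPM in stage 10.5 morphants, against 3.19, 277 and 563 CPM in stage 9 morphants, with no overlap and a log2 fold change of 1.09 ± 1.56. The paraxial protocadherin gene pcdh8.2 had 239 and 253 CPM in stage 10.5 morphants, against 0.0592, 30.6 and 198 CPM in stage 9 morphants. The posterior gene cdx4 had 57.7 and 6.03 CPM in stage 10.5 morphants, against 0.0592, 2.60 and 14.6 CPM in stage 9 morphants. Of these, pcdh8.2 was separated between the stages and cdx4 was not.

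Maternal and zygotic transcripts of one gene are counted together here, and vegt shows this. The gene encodes a T-box factor of the vegetal pole with a maternal transcript. It had 2282 and 1564 CPM in stage 10.5 morphants, against 539, 869 and 1734 CPM in stage 9 morphants. Even the lowest library held 539 CPM, unlike tbxt, and the log2 fold change was 0.88 ± 0.51 (adjusted p = 0.656).

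Endodermal genes came next. Of 25 listed, 23 were tested and 0 passed, but both gastrula libraries lay above all 3 blastula libraries for 12 of the 23, beside 14.0% of all genes. In controls 11 of 23 were separated, beside 12.6% of all genes. The morphant median log2 fold change was 1.35, with 17 of 23 at least 2-fold higher and 0 at least 2-fold lower. Without stage 9 replicate 1 it was 0.91, and without stage 9 replicate 3 it was 2.99. The homeobox gene mixer, a direct Nodal target in endoderm, had 795 and 631 CPM in stage 10.5 morphants, against 2.48, 178 and 589 CPM in stage 9 morphants. Its log2 fold change was 1.48 ± 1.63. The HMG-box gene sox17a, a determinant of endoderm, had 224 and 242 CPM in stage 10.5 morphants, against 3.02, 107 and 210 CPM in stage 9 morphants. The GATA factor gene gata6 had 235 and 139 CPM in stage 10.5 morphants, against 1.77, 18.4 and 109 CPM in stage 9 morphants, with a log2 fold change of 2.12 ± 1.43. In all 3 genes the lower gastrula library exceeded the highest blastula library by less than the blastula libraries differed among themselves.

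Secreted antagonists of the anterior endoderm were separated too. The multivalent inhibitor gene cer1 (cerberus) had 138 and 75.2 CPM in stage 10.5 morphants, against 0.177, 3.78 and 42.7 CPM in stage 9 morphants, with a log2 fold change of 2.79 ± 1.72 (adjusted p = 0.669). The Wnt antagonist gene frzb had 222 and 177 CPM in stage 10.5 morphants, against 0.177, 11 and 96.2 CPM in stage 9 morphants, with a log2 fold change of 2.49 ± 1.79. Both stayed positive with any single library left out, between 2.22 and 5.77 for cer1 and between 1.91 and 5.17 for frzb.

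The organizer list held genes that were highest in the gastrula and genes that were highest in a blastula library. Of 26 listed, 21 were tested and 0 passed. At least 2-fold higher levels were fitted for 9 and at least 2-fold lower levels for 1, and 7 were separated between the stages, all higher in the gastrula, beside 14.0% of all genes. The median log2 fold change was 0.39, and without stage 9 replicate 1 it was -0.15. The homeobox gene gsc (goosecoid) had 103 and 124 CPM in stage 10.5 morphants, against 1.01, 106 and 166 CPM in stage 9 morphants. Chordin, a BMP antagonist encoded by chrd.1, had 253 and 184 CPM in stage 10.5 morphants, against 0.0592, 198 and 303 CPM in stage 9 morphants. In both genes stage 9 replicate 3 was the highest of the 5 libraries and stage 9 replicate 1 held almost none. Noggin, another BMP antagonist encoded by nog, had 10.3 and 13.2 CPM in stage 10.5 morphants, against 0.710, 22.9 and 21.5 CPM in stage 9 morphants. The anti-dorsalizing ligand gene admp had 68.1 and 115 CPM in stage 10.5 morphants, against 8.64, 207 and 138 CPM in stage 9 morphants. The notochord homeobox gene not had 104 and 142 CPM in stage 10.5 morphants, against 32.2, 278 and 208 CPM in stage 9 morphants. For these last 3 genes both gastrula libraries lay below 2 of the blastula libraries, and the log2 fold changes of -0.35 ± 1.25 for nog, -0.36 ± 1.16 for admp and -0.49 ± 0.85 for not turned positive without stage 9 replicate 2.

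The early dorsal and Nodal genes named here, sia2, nodal6 and foxh1, each had their highest value in a blastula library. The siamois gene sia2, an immediate target of maternal Wnt signalling, had 0.359 and 3.21 CPM in stage 10.5 morphants, against 8.99, 11.7 and 2.61 CPM in stage 9 morphants, with a log2 fold change of -2.12 ± 1.14 (adjusted p = 0.647). The Nodal ligand gene nodal6 had 13.9 and 18.6 CPM in stage 10.5 morphants, against 8.93, 33.8 and 22.2 CPM in stage 9 morphants. Both were highest in stage 9 replicate 2. The maternal forkhead gene foxh1, which carries Nodal signals to DNA through Smad proteins, had 166 and 259 CPM in stage 10.5 morphants, against 745, 579 and 297 CPM in stage 9 morphants. Its groups did not overlap, and the log2 fold change was -1.34 ± 0.45 (unadjusted p = 0.029, adjusted p = 0.647). Of 24 listed Nodal pathway genes, 21 were tested and 0 passed, with 1 at least 2-fold higher, 2 at least 2-fold lower and a median log2 fold change of 0.04.

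In the BMP and ventral list, 24 of 31 genes were tested and 0 passed. At least 2-fold higher levels were fitted for 10 and at least 2-fold lower levels for 1, with a median log2 fold change of 0.92. The zygotic ligand gene bmp4 and the genes id3 and ventx2.1 had positive log2 fold changes. The bmp4 gene had 67.8 and 59.0 CPM in stage 10.5 morphants, against 5.21, 27.4 and 53.7 CPM in stage 9 morphants, with a log2 fold change of 1.15 ± 0.87. The BMP target gene id3, an inhibitor of helix-loop-helix factors, had 1004 and 815 CPM in stage 10.5 morphants, against 17.3, 214 and 741 CPM in stage 9 morphants. The ventralizing homeobox gene ventx2.1 had 439 and 230 CPM in stage 10.5 morphants, against 4.08, 62.5 and 260 CPM in stage 9 morphants. Stages were separated for bmp4 and id3 and overlapped for ventx2.1. The maternal ligand gene bmp2 ran the other way. It had 25.6 and 28.7 CPM in stage 10.5 morphants, against 72.4, 55.8 and 37.9 CPM in stage 9 morphants, with a log2 fold change of -1.02 ± 0.33 (unadjusted p = 0.0244, adjusted p = 0.647).

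Of 35 Wnt pathway genes, 29 were tested and 0 passed, with 8 at least 2-fold higher, 1 at least 2-fold lower and a median log2 fold change of 0.36. The ventrolateral ligand gene wnt8a had 94.6 and 91.9 CPM in stage 10.5 morphants, against 1.24, 23.4 and 66.2 CPM in stage 9 morphants, and the stages did not overlap. Of 27 fibroblast growth factor (FGF) pathway genes, 24 were tested and 0 passed, with 3 at least 2-fold higher, 1 at least 2-fold lower and a median of 0.32. The receptor gene fgfr2 had 118 and 77.3 CPM in stage 10.5 morphants, against 25.8, 35.9 and 63.4 CPM in stage 9 morphants, with a log2 fold change of 1.24 ± 0.43 (unadjusted p = 0.0345, adjusted p = 0.647). The ETS factor gene etv1 differed little but evenly. It had 355 and 361 CPM in stage 10.5 morphants, against 300, 277 and 286 CPM in stage 9 morphants, with a log2 fold change of 0.32 ± 0.12 (unadjusted p = 0.0405, adjusted p = 0.647).

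The 3 pou5f3 genes, which encode the frog relatives of the pluripotency factor Oct4, ran in different directions. In the list of pou5f3 and early zygotic genes, 24 of 27 were tested and 0 passed, with 12 at least 2-fold higher, 2 at least 2-fold lower and a median of 0.98. Zygotic pou5f3.1 had 796 and 575 CPM in stage 10.5 morphants, against 1.42, 150 and 429 CPM in stage 9 morphants, with a log2 fold change of 1.83 ± 1.67. For pou5f3.2 the values were 1662 and 1574 CPM in stage 10.5 morphants, against 248, 645 and 1062 CPM in stage 9 morphants, with a log2 fold change of 1.32 ± 0.57 (adjusted p = 0.647). Maternal pou5f3.3 had 431 and 652 CPM in stage 10.5 morphants, against 910, 1045 and 727 CPM in stage 9 morphants, with a log2 fold change of -0.72 ± 0.25 (unadjusted p = 0.0339, adjusted p = 0.647). All 3 were separated between the stages, the first pair higher and pou5f3.3 lower in the gastrula.

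Maternal and germ plasm transcripts lay mostly on the lower side. Of 57 listed, 45 were tested and 0 passed. Both gastrula libraries lay below all 3 blastula libraries for 20 of the 45, beside 14.5% of all genes, and above them for 2. In controls 15 of 45 were separated on the lower side, beside 12.5% of all genes. An unadjusted p under 0.05 on the lower side was reached by 12 of the 45 in morphants, beside 3.37% of all genes, and by 12 of 45 in controls, where 4.37% of all genes reached it in either direction. The median log2 fold change of -0.40 moved little as single blastula libraries were left out, between -0.44 and -0.33. At least 2-fold lower levels were fitted for 8 of the 45.

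**Figure D3:**
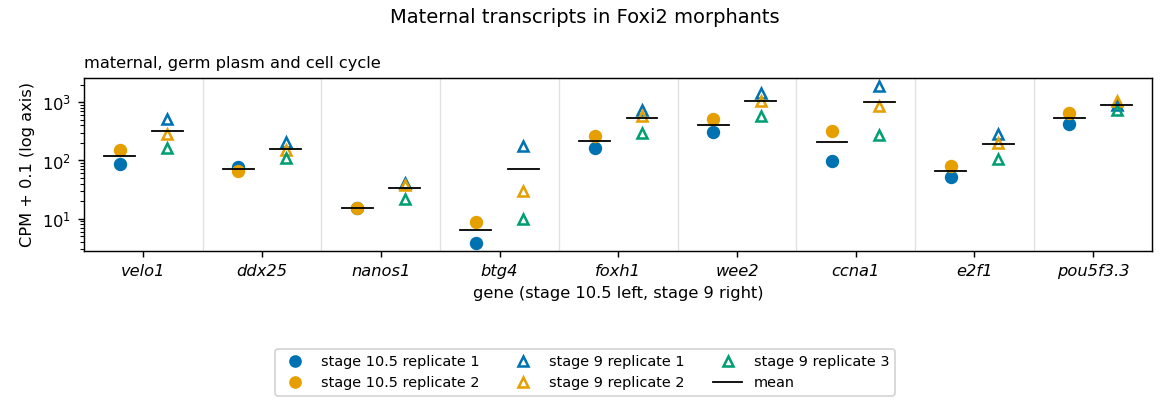
CPM plus 0.1 on a log axis for 9 maternal, germ plasm and cell cycle transcripts in the 5 Foxi2 morphant libraries, with symbols for stage and colours for replicate number, and bars for the stage mean. Stage 9 replicate 3 is the blastula library nearest the gastrula libraries in each gene.

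The germ plasm genes velo1, ddx25 and nanos1 are examples and do not stand for the list. Their log2 fold changes lay below the list median of -0.40. Of the 45 genes tested, 34 had a negative log2 fold change and 11 a positive one. Other germ plasm genes, among them dazl, grip2 and dnd1, are not described. The gene velo1, the frog relative of Bucky ball that organizes germ plasm, had 86.3 and 153 CPM in stage 10.5 morphants, against 512, 287 and 161 CPM in stage 9 morphants, with a log2 fold change of -1.42 ± 0.56 (adjusted p = 0.647). The germ-cell RNA helicase gene ddx25 had 75.7 and 66.5 CPM in stage 10.5 morphants, against 205, 150 and 109 CPM in stage 9 morphants. The translational repressor gene nanos1 had 15.2 and 15.4 CPM in stage 10.5 morphants, against 40.4, 37.3 and 21.7 CPM in stage 9 morphants. The log2 fold changes were -1.12 ± 0.31 for ddx25 (unadjusted p = 0.014) and -1.11 ± 0.35 for nanos1 (unadjusted p = 0.023), each with an edgeR adjusted p of 0.647. The maternal homeobox gene otx1 had 77.6 and 92.7 CPM in stage 10.5 morphants, against 205, 166 and 124 CPM in stage 9 morphants, with a log2 fold change of -0.95 ± 0.26. In all 4 genes the stages were separated, also in controls.

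The genes btg4, cpeb1 and fbxo43 act in the oocyte or in meiosis. The deadenylation factor gene btg4, which promotes clearance of maternal mRNA in mouse oocytes, had 3.66 and 8.71 CPM in stage 10.5 morphants, against 177, 29.6 and 9.75 CPM in stage 9 morphants, with a log2 fold change of -3.54 ± 1.43 (adjusted p = 0.647), or -1.66 without stage 9 replicate 1. The cytoplasmic polyadenylation factor gene cpeb1 had 13.1 and 38.8 CPM in stage 10.5 morphants, against 456, 114 and 26.2 CPM in stage 9 morphants. The gene fbxo43, which encodes the meiotic inhibitor Emi2, had 5.89 and 13.9 CPM in stage 10.5 morphants, against 164, 32.6 and 10.0 CPM in stage 9 morphants. Stage 9 replicate 3 lay within the gastrula range for cpeb1 and fbxo43, and without stage 9 replicate 1 the log2 fold change of -2.94 for cpeb1 became -1.42.

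The median of the cell cycle list was near that of all genes. Of 49 listed genes, 44 were tested and 0 passed, the median log2 fold change was -0.07, 3 were at least 2-fold higher and 8 at least 2-fold lower. Both gastrula libraries lay below the blastula libraries for 10 of the 44, beside 14.5% of all genes, and above them for 5, beside 14.0%. Embryonic cyclin A1 mRNA, from ccna1, had 98.8 and 319 CPM in stage 10.5 morphants, against 1885, 858 and 275 CPM in stage 9 morphants. The maternal kinase gene wee2, an inhibitor of Cdk1, had 308 and 514 CPM in stage 10.5 morphants, against 1470, 1067 and 590 CPM in stage 9 morphants, with a log2 fold change of -1.34 ± 0.46. Its zygotic counterpart wee1 had 142 and 90.9 CPM in stage 10.5 morphants, against 3.37, 24.4 and 89.2 CPM in stage 9 morphants, with a log2 fold change of 1.59 ± 1.18. The wee2 and wee1 mRNAs ran in opposite directions, each with separated stages. The phosphatase gene cdc25a, which drives the rapid cleavage cycles, had 133 and 311 CPM in stage 10.5 morphants, against 888, 694 and 240 CPM in stage 9 morphants. The S-phase factor gene e2f1 had 52.8 and 79.5 CPM in stage 10.5 morphants, against 284, 196 and 105 CPM in stage 9 morphants, with a log2 fold change of -1.56 ± 0.48 (unadjusted p = 0.0209, adjusted p = 0.647).

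Cadherin and matrix genes leaned to the higher side. Of 45 listed, 36 were tested and 0 passed, with 7 at least 2-fold higher, 2 at least 2-fold lower and a median log2 fold change of 0.32. Of the 36, 9 were separated on the higher side, beside 14.0% of all genes, and 1 on the lower side, beside 14.5%. E-cadherin, encoded by cdh1, had 57.8 and 13.4 CPM in stage 10.5 morphants, against 1.18, 7.32 and 34.1 CPM in stage 9 morphants. Its log2 fold change of 1.34 ± 1.34 was -0.07 without stage 10.5 replicate 1.

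**Figure D4:**
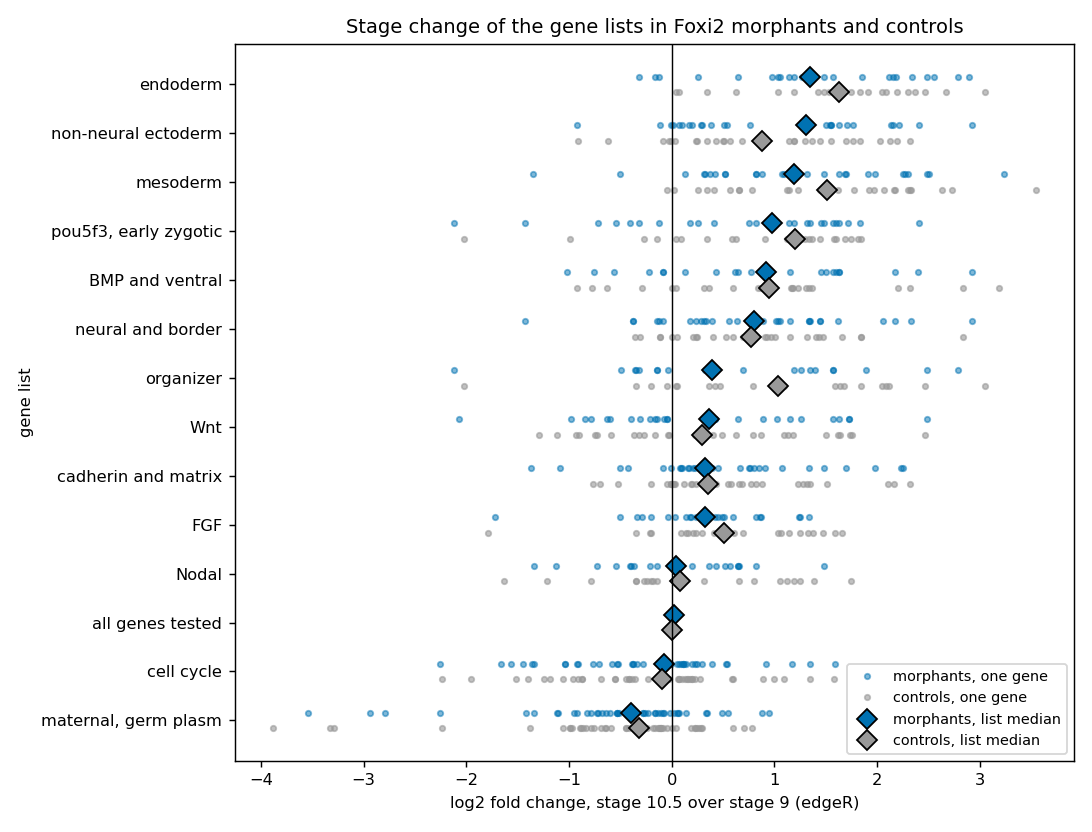
Log2 fold change of stage 10.5 over stage 9 for the genes of 13 lists, with morphants (blue) above controls (grey) in each row. Small points are single genes and diamonds are list medians. A further row holds the medians of all genes tested, 13382 in morphants and the 13038 of these also tested in controls. The endoderm median is 1.35 in morphants and 1.63 in controls, and the maternal median is -0.40 in morphants and -0.32 in controls.

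Controls showed how much of this pattern was shared. In them 0 of 13247 genes passed the test in either direction (0% of the genes tested), with a smallest adjusted p of 0.676. At an unadjusted p under 0.05, 579 control genes differed (4.37%), of which 142 were higher at stage 10.5 and 437 lower. At least 2-fold higher levels were fitted for 8.16% of control genes and at least 2-fold lower levels for 8.21%. DESeq2 called 2 higher (0.0101%) and 3 lower (0.0151%). The higher ones with DESeq2 were bmpr2 and opn8, and the lower ones were LOC101734900, LOC101731824 and LOC116411669, all named after their values were seen. The lower ones had DESeq2 log2 fold changes of -21.69 ± 4.21, -21.08 ± 4.34 and -21.04 ± 4.35 (SE). Values of this size are not taken as fold changes. Of the 13038 genes tested in both, 992 were at least 2-fold higher at stage 10.5 in morphants and 1024 in controls, and 806 were so in both, which is 81.2% of the morphant genes and 78.7% of the control genes. At least 2-fold lower levels were fitted for 1023 genes in morphants and 1056 in controls, and 824 were shared, 80.5% of the morphant genes and 78% of the control genes. By separation of the stages the sharing was lower. Of 1813 genes separated on the higher side in morphants and 1649 in controls, 1085 were shared, 59.8% of the morphant genes and 65.8% of the control genes. On the lower side 1095 were shared of 1916 in morphants and 1640 in controls, 57.2% of the morphant genes and 66.8% of the control genes. Across these genes, which are not independent replicates, the log2 fold changes had a Pearson correlation of 0.911 and a Spearman correlation of 0.903, and 88.6% had the same sign. Morphant and control libraries of one number deviate from their stage mean together, so this likeness includes what the paired libraries share beside the stage.

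**Figure D5:**
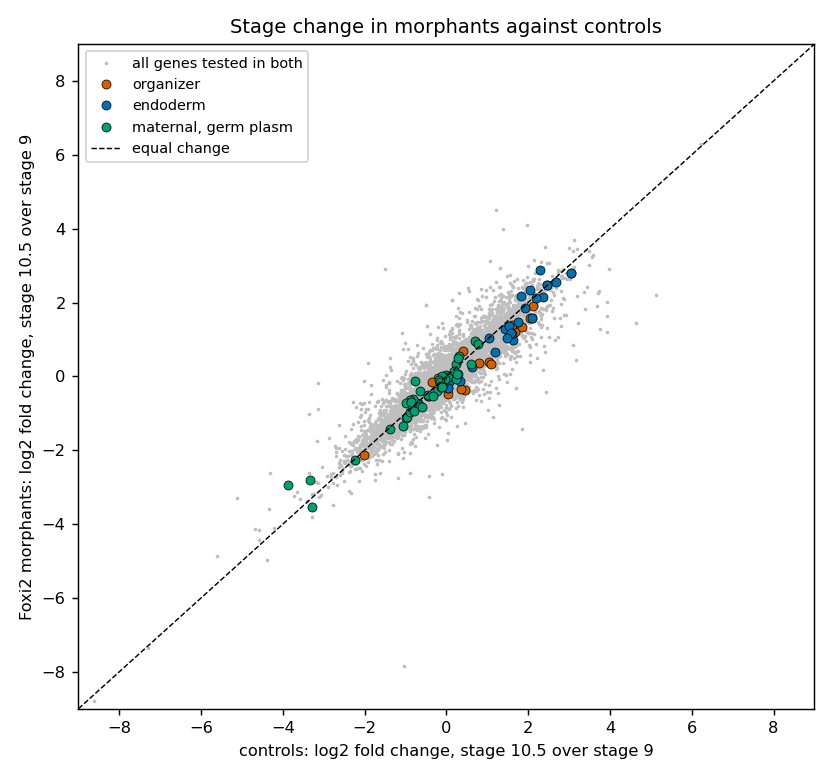
Log2 fold change of stage 10.5 over stage 9 in Foxi2 morphants (vertical axis) against that in controls (horizontal axis) for 13038 genes (grey), with the organizer, endoderm and maternal lists in colour and a dashed line of equal change. The points lie along the line with a Pearson correlation of 0.911, and 17 of 21 organizer genes have a negative difference in the fit without the replicate block.

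The difference between the stage changes was then tested directly, in one model over all 10 libraries. Of 13987 genes, 0 had a difference (morphant stage change minus control stage change) that was called positive (0%) and 0 negative (0%), with a smallest adjusted p of 1. At an unadjusted p under 0.05, 5 were positive (0.0357%) and 2 negative (0.0143%), and DESeq2 called 0. With the replicate number within each stage as a block, the biological coefficient of variation of the model was 0.0797 in place of 0.526. Calls were again 0 in both directions, with a smallest adjusted p of 0.155 and 230 genes (1.64%) in each direction at an unadjusted p under 0.05. The list values that follow come from the fit without the block unless stated. By list, the median difference was 0.00 for non-neural ectoderm, 0.02 for neural and border genes, -0.15 for mesoderm, -0.23 for endoderm, -0.38 for the organizer and -0.05 for maternal genes, beside 0.00 over all genes. A loss that is equal at both stages does not enter these differences. The difference was negative for 17 of 21 organizer genes, 19 of 23 endoderm genes, 22 of 29 mesoderm genes and 18 of 24 FGF pathway genes, beside 6716 of 13373 genes overall. The median difference was -0.14 for the FGF list, -0.13 for pou5f3 and early zygotic genes (14 of 24 negative) and -0.15 for the Nodal list (13 of 21 negative). Negative differences with an edgeR unadjusted p under 0.05 in the fit with the block were counted too. They numbered 5 of 21 for the organizer, 3 of 23 for endoderm, 2 of 29 for mesoderm and 3 of 24 for FGF. They numbered 0 of 31 for non-neural ectoderm and 1 of 32 for neural and border genes, beside 226 of 13373 overall. In either direction the counts were 5, 4, 2, 3, 2 and 4 in the same order, beside 444. Since the cer1 and frzb genes, among others, stand in more than one list, these counts are not independent. All genes of a list also come from the same 10 libraries, so they are not replicates. The blastula pairs differed, as genes picked as examples show. The log2 ratio of morphant over control in pairs 1, 2 and 3 was -0.04, 1.94 and 1.16 for gsc. It was -0.28, 1.27 and 0.67 for mixer and -0.90, 0.79 and 0.53 for eomes.

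In blastula pairs 2 and 3, some organizer, mesoderm and endoderm genes had more mRNA in the morphant than in the control. Summed over the endoderm list, stage 9 replicates 1, 2 and 3 had 58.5, 962 and 2192 CPM in morphants. Controls had 66.1, 587 and 1574 CPM. The organizer sums were 144, 1397 and 2063 CPM in morphants, against 145, 749 and 1401 CPM in controls. In pair 1 the log2 ratio of morphant over control was -2.12 for chrd.1. The apelin receptor gene aplnr (chr1:143796046-143798301), expressed in involuting mesoderm, had 139 and 206 CPM in stage 10.5 morphants, against 0.592, 97.4 and 150 CPM in stage 9 morphants. In controls it had 101 and 158 CPM at stage 10.5, against 0.461, 20.2 and 57.5 CPM at stage 9. Blastula pairs 2 and 3 had more than 2-fold more aplnr mRNA in the morphant, while the first pair and the gastrula pairs differed by less than 2-fold. The stage change was smaller in morphants by -1.26 ± 2.50 (adjusted p = 1), or -1.34 ± 0.26 with the block (unadjusted p = 0.00067, adjusted p = 1). The gsc gene was also higher in the morphants of blastula pairs 2 and 3, and in both gastrula pairs, with 83.4 and 62.3 CPM in stage 10.5 controls, against 1.04, 27.5 and 74.5 CPM in stage 9 controls. Its difference was -0.77 ± 2.37. For chrd.1, with a stage change of 0.39 in morphants and 1.04 in controls, it was -0.65, and it was 0.11 without morphant stage 9 replicate 3. For nog it was -0.71. None of these differences passed the test. Values with the block are given by gene for aplnr and hes5.1 alone, and aplnr was named with results of these data known. The differences given for other genes come from the fit that ignores the pairing. With the block, 230 genes (1.64%) in each direction had an edgeR unadjusted p under 0.05.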

How the data were processed

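Polyadenylated RNA of whole embryos was sequenced by the authors, and the deposited tables hold expected counts per gene, estimated by RSEM and not whole in every row. The study's methods name RSEM with STAR and the X. tropicalis V10.0 genome, while the submitters' processing notes list RSEM 1.2.12 and Bowtie2 2.2.7. The columns carry treatment and replicate number, and the stage was taken from the table they stand in. Expected counts were rounded to whole numbers, genes were filtered with filterByExpr, and libraries were scaled by TMM. edgeR 4.0.16 (quasi-likelihood test, R 4.3.3) compared stage 10.5 with stage 9 within the 5 morphant and within the 5 control libraries, and the difference of the stage changes over all 10. Calls needed a p under 0.05 after Benjamini-Hochberg adjustment together with a change of at least 2-fold either way. The edgeR test reports no SE, so each edgeR SE is the size of the log2 fold change divided by the square root of its F statistic. CPM values use TMM-scaled library sizes and are not corrected for gene length, so genes are not compared with each other by level. DESeq2 1.42.0 was the alternative, together with library size scaling, no filter, other thresholds, the replicate block, all libraries in one fit, and each replicate left out. The scripts were tested on simulated data.

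Nothing states that replicates came from separate clutches, so p-values measure the spread between these libraries, which may be technical in part. No 2 replicates were alike within sampling noise, since the chi-square per gene between replicates was 51.2 or more. Replicate numbers pair morphants with controls: in 5 pairs of the same stage and number the deviations from the group means correlated at 0.79 to 0.932. With 2 libraries a group at stage 10.5, the deviations there are mirror images. Both stage 10.5 pairs therefore give the same value, 0.842. Intervals and floors of 3 counts cover counting error only. Of 28850 gene names, 26531 matched a RefSeq symbol of the same assembly. The members and lists were chosen with earlier results of these data known. The text names foxi2, sox3, genes the study followed as targets, members of the lists, and up to 10 genes called per direction, of which there were none. Genes of the lists are examples with a known role, and they were not picked blind to their values. The tables of the Sox3 experiment were not used. Results for a few genes are not reported here.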

Additional observations from a re-analysis of the deposited data

How the results depend on the processing

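The count of 0 calls in morphants and controls stayed at 0 with library size scaling, without the filter, with adjusted p alone, with a log2 change of 2 or more either way, with all 10 libraries in one fit and with any replicate left out (lowest 0, highest 0), and the count of 0 for the difference of the stage changes stayed at 0 under each of these that was run and with DESeq2. DESeq2 called 1 gene higher and 3 lower in morphants, and 2 higher and 3 lower in controls. Chosen after seeing the data, the stage 10.5 libraries were set against each stage 9 library alone. Stage 9 replicate 1, already seen to stand apart, gave 242 genes higher and 58 lower in morphants and 361 higher and 184 lower in controls, and replicates 2 and 3 gave 0. With 1 library in an arm and the spread taken from the other stage, these counts describe that library and are no test of the stage. Where 1 library remained in a stage, it was assumed to vary like the other stage. Stage 10.5 and stage 9 libraries of one number did not deviate together (4 pairs, correlations from -0.422 to 0.0606). The mirror-image deviations at stage 10.5 tie these correlations to each other. So few libraries cannot show whether samples of one number share more than the number across the stages. The fit with the replicate block called 0 genes in either direction (smallest adjusted p 0.652 in morphants and 0.446 in controls). Of 65 named genes, 50 kept the sign of their morphant log2 fold change under every alternative. With the replicate block the sign turned for hes5.1 (1.28), foxd4l1.1 (1.89), nog (1.43), admp (1.05) and not (0.36). In that fit stage 9 replicate 3 has no gastrula library of its number, so it does not enter the estimated stage change. The fit leaves 1 residual degree of freedom. With single libraries left out the range crossed 0 for foxi2 (-0.38 to 0.12), sox3 (-0.14 to 0.44), dlx5 (-0.07 to 2.45), amotl1 (-0.60 to 0.79), sox2 (-0.60 to 2.47), hes5.1 (-2.57 to 0.66), kit (-1.49 to 1.48), foxd4l1.1 (-0.64 to 0.41), gsc (-0.25 to 1.1), chrd.1 (-0.18 to 1.16), nog (-0.90 to 0.09), admp (-0.90 to 0.33), not (-0.97 to 0.04), nodal6 (-0.78 to 0.06) and cdh1 (-0.07 to 3.09). The difference of the stage changes crossed 0 for foxi1 (-0.52 to 2.60) and chrd.1 (-1.84 to 0.11). The design had 2 and 3 libraries a stage and a biological coefficient of variation of 0.505. For 53 of the 65 named genes, leaving out a single library moved the morphant log2 fold change by over 1.5 times in size or turned its sign. The cause of the spread within stage 9 was not tested.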

Other observations

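The genes with the largest separated changes were not all in the lists. They were chosen after their values were seen, among those averaging at least 5 CPM in the higher stage. Genes with provisional names, such as LOC numbers, or without a RefSeq symbol were left out. The 4 below are examples from these genes. On the lower side fbxl8 came first, with a morphant log2 fold change of -4.14. The complement gene cfd had 9.04 and 6.11 CPM in stage 10.5 morphants, against 0.177, 0.236 and 1.65 CPM in stage 9 morphants. The gene ropn1l had 53.3 and 247 CPM in stage 10.5 morphants, against 7.45, 24.7 and 40.6 CPM in stage 9 morphants. On the lower side, the zinc finger gene casz1 had 5.02 and 4.58 CPM in stage 10.5 morphants, against 36.4, 45.0 and 10.9 CPM in stage 9 morphants, and a log2 fold change of -2.67 ± 0.69. The Wnt receptor gene fzd1 had 2.94 and 7.49 CPM in stage 10.5 morphants, against 62.7, 22.4 and 8.03 CPM in stage 9 morphants. All 4 were separated in morphants, and in controls casz1 and ropn1l were separated as well.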
